A study of Mus musculus with 6 samples.

Results

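Interleukins are secreted signals through which immune, endothelial and epithelial cells instruct each other, and each acts on cells that carry its receptor. Most receptors are pairs of chains, of which some are shared by many ligands (gp130, the common gamma chain, the IL-1 receptor accessory protein) and some are decoys or have soluble antagonists that hold the signal back. In the kidney after ischemia, injured tubules release alarm signals of the IL-1 family, and infiltrating leukocytes add further interleukins and receptors. The genes described here are those whose platform annotation symbol begins with Il and a digit, which covers ligands, receptor chains, antagonists and a few genes named after an interleukin, such as the amino acid oxidase gene Il4i1 and the antisense gene Il1bos. There were 73 such genes among 18193 genes with a probe set of a single symbol, and each was represented by its brightest such probe set over the 6 arrays. On 47 of the 73 genes (64.4%) that probe set was dim, with a mean intensity under 64, against 33.2% of all genes, and 26 genes averaged 64 or more.

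RNA was taken from kidneys of male FVB/N mice, aged 6 to 8 weeks, after clamping of the renal pedicle on 1 side for 45 or 60 min, or for 0 min, and kidneys were collected 3 days or 1 day later. Each of the 6 combinations (45 and 60 min on day 3, 45 and 60 min on day 1, 0 min on day 3 and 0 min on day 1) had 1 array, and the labels do not say whether an array held 1 animal. No allele or drug is named for these 6 kidneys. The series title concerns blockade of tumor necrosis factor after such an injury, and kidneys given that treatment were not analysed here.

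With 1 array per combination, clamped kidneys were set against 0 min kidneys in a limma fit with clamp time and day as terms, in which the other kidneys stand in for replicates, and pairs of arrays were compared by size alone. The fit left 2 residual degrees of freedom. At a Benjamini-Hochberg adjusted p under 0.05 it called 0 of 12734 tested genes (0.0%) for clamped against 0 min kidneys, and hence 0 interleukin genes. With a trended and robust prior it called 75 genes, Il1f6 among them, and counts under other settings are given below. Median intensity was 81.4 to 95.3 and 18.4 to 20.6% of probe sets lay under 16 on the 6 arrays. The ends of the Actb transcript were compared as a measure of RNA integrity, and 3' over 5' intensity on the log2 scale was 0.77 at 0 min, 1.03 at 45 min and 0.49 at 60 min on day 3, and 1.08 to 1.12 on day 1. Summed markers of kidney tubule were present on every array (66755 to 106268 in clamped and 97130 to 103937 in 0 min kidneys), and all 6 listed tubule markers were measured. Their lowest sums were those of the 60 min kidneys, at 69200 on day 3 and 66755 on day 1.

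Il1f6, which encodes the alarm cytokine IL-36 alpha, had the largest clamp difference among the interleukin genes that passed the filter on low values. Its intensity on day 3 was 57.4 at 0 min, 162 at 45 min and 444 at 60 min, and on day 1 it was 62.2 at 0 min, 224 at 45 min and 389 at 60 min. The order of the 3 clamp times was the same on both days, and the 4 clamped kidneys did not overlap with the 0 min kidneys. Of all genes with a mean of 64 or more, 9.78% had this order and 11.0% had all 4 clamped kidneys above both 0 min kidneys. On the log2(intensity + 16) scale, on which all differences here are given, Il1f6 was higher by 1.98 ± 0.17 (SE, 4 clamped and 2 unclamped arrays, limma adjusted p = 0.131). It ranked 6 of 12734 tested genes by p-value. At 60 min its intensity was 7.74 times that at 0 min on day 3 and 6.26 times on day 1. The difference of 60 from 45 min was 1.06 ± 0.20 (limma adjusted p = 0.306), and that of day 3 from day 1 among clamped kidneys was -0.12 ± 0.53. By the brightest probe set of each gene, Il1f6 was the 1 interleukin gene at least 2-fold higher in each of the 4 clamped kidneys. That pattern was shown by 30 genes or 0.165% of all genes.

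Il1rl2 encodes the receptor chain that binds IL-36 alpha. Its intensity on day 3 was 54.9 at 0 min, 109 at 45 min and 296 at 60 min, and on day 1 it was 65.7 at 0 min, 119 at 45 min and 144 at 60 min. Receptor and ligand thus had the same order of clamp times on both days, and the 60 min day 3 kidney was the highest for each. The order was that of 9.78% of all genes with a mean of 64 or more, and that kidney was the highest in 23.4% of all genes. The clamp difference of Il1rl2 was 1.16 ± 0.28 (limma adjusted p = 0.222). A second Il1rl2 probe set, under 16 on every array, gave 0.12 and did not have the order on day 3. The other IL-36 ligands and the antagonist of the same receptor were near or below the dim limit. Il1f9 (IL-36 gamma) ranged from 48.2 to 51.6 in clamped kidneys on day 3, 44.8 to 50.0 in clamped kidneys on day 1 and 48.5 to 71.4 in 0 min kidneys, and Il1f8 (IL-36 beta) lay between 5.58 and 64.4 over all 6 arrays. Il1f5, the IL-36 receptor antagonist gene, was below 74 on every array, with a clamp difference of -0.14 on its brightest probe set. A second, dimmer Il1f5 probe set gave -0.89. It had 43.1, 24.0 and 4.00 at 0, 45 and 60 min on day 3 and 54.0, 23.6 and 30.2 on day 1. Il1f10 (IL-38) was between 36.6 and 81.0 in clamped kidneys and at 10.2 and 107 in the 0 min kidneys of day 3 and day 1. No order of clamp times was shared by the 2 days in Il1f10 or Il1f9.

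**Figure D1:**
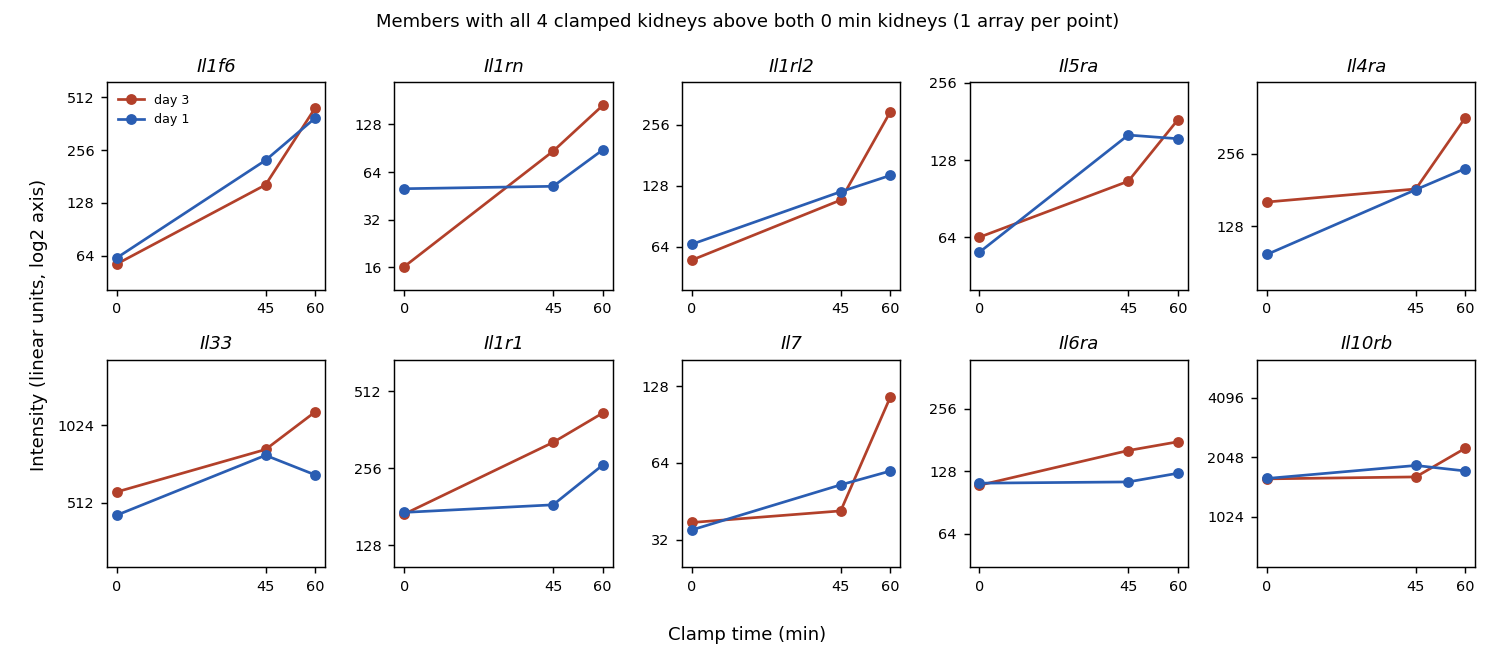
Intensity on a log2 axis against clamp time in minutes for the 10 interleukin genes whose 4 clamped kidneys were all above both 0 min kidneys; each point is 1 array, red for day 3 and blue for day 1, and lines join different kidneys of a day. Il1f6 separates most widely, from 162 to 444 in clamped kidneys against 57.4 and 62.2 in 0 min kidneys, while the gap of Il6ra, at 114 to 177 against 110 and 112, is narrow.

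Among the other IL-1 family ligands, Il33, whose protein is a nuclear alarm signal released by damaged cells, had 564 at 0 min, 824 at 45 min and 1152 at 60 min on day 3. On day 1 it had 458 at 0 min, 782 at 45 min and 656 at 60 min, so that 60 min exceeded 45 min on day 3 but not on day 1. Its clamp difference was 0.70 ± 0.19 (limma adjusted p = 0.243). Il1b, the inflammasome-dependent ligand of the IL-1 receptor, stood out in 1 kidney: on day 3 it was at 108, 120 and 290 at 0, 45 and 60 min, and on day 1 at 101, 118 and 102. The clamp difference of Il1b was 0.41 ± 0.32 (limma adjusted p = 0.585) and ran from 0.08 to 0.74 with 1 array left out. Il1a was at or under 21.7 on every array, and Il18, which tubule cells also make, differed by 0.14 ± 0.18 (limma adjusted p = 0.744) with day 3 values of 354, 335 and 368 and day 1 values of 227, 217 and 362 at 0, 45 and 60 min.

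The antagonist side of the IL-1 family gave values that depended on the probe set or on the day. Il1rn, the IL-1 receptor antagonist gene, had 16.2, 86.8 and 169 at 0, 45 and 60 min on day 3, and 50.2, 52.0 and 88.4 on day 1. All 4 clamped kidneys were thus above both 0 min kidneys, by a margin of under 2 intensity units for 45 min on day 1, and the clamp difference was 1.22 ± 0.41 (limma adjusted p = 0.298). The other 2 Il1rn probe sets gave clamp differences of -0.22 and 0.44, so the direction was not shared by all probe sets of the gene. Il18bp, which encodes the soluble inhibitor of IL-18, had 98.6, 73.2 and 92.3 at 0, 45 and 60 min on day 3 and 8.01, 136 and 55.3 on day 1. The decoy receptor gene Il1r2 had 8.43, 57.3 and 122 at 0, 45 and 60 min on day 3 and 45.8, 47.5 and 29.5 on day 1, and it did not pass the filter on low values. For Il18bp, Il1rn and Il1r2 the 0 min kidneys of the 2 days differed by more than 2-fold from each other, with no clamping in either.

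Il1r1, the signalling receptor of IL-1, had 170, 323 and 421 at 0, 45 and 60 min on day 3, and 172, 184 and 264 on day 1. The 0 min kidneys were nearly equal and each clamped kidney was above them. The clamp difference was 0.69 ± 0.20 (limma adjusted p = 0.263), and clamped kidneys of day 3 exceeded those of day 1 by 0.70 ± 0.26 (limma adjusted p = 0.997). That day contrast called 0 tested genes (0.0%) after adjustment. At an unadjusted p under 0.05 it held 3 of 35 interleukin genes higher and 0 lower on day 3, against 1.75% higher and 2.35% lower of all tested genes. Il1rap, the accessory chain shared by the IL-1, IL-33 and IL-36 receptors, lay between 209 and 279 in clamped kidneys and at 227 and 270 in the 0 min kidneys of day 3 and day 1, a difference of 0.01 ± 0.15. Its other probe sets above the dim limit gave clamp differences of -0.40 and 0.53, and its dim ones -0.40 and -0.73. The probe sets of Il1rap thus did not share a direction. Il18r1, the ligand-binding chain of the IL-18 receptor, ranged from 73.1 to 112 in clamped kidneys against 100.2 and 86.9 in the 0 min kidneys of day 3 and day 1. Il18rap, the other chain of that receptor, was dim and higher at 60 min: it had 51.3, 42.3 and 106 at 0, 45 and 60 min on day 3 and 56.5, 35.6 and 88.6 on day 1. It was higher at 60 than at 45 min by 1.04 ± 0.16 (limma adjusted p = 0.306), and its second probe set gave 1.05. The fit called 0 tested genes (0.0%) between 60 and 45 min after adjustment. At an unadjusted p under 0.05, 3 of 35 interleukin genes were higher and 1 lower at 60 min, against 7.76% higher and 5.29% lower of all tested genes.

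Receptor chains of the type 2 cytokines differed in size and direction among themselves. Il5ra, the specific chain of the IL-5 receptor known from eosinophils and B cells, had 64, 106 and 184 at 0, 45 and 60 min on day 3 and 55.9, 160 and 155 on day 1. Its clamped kidneys lay above both 0 min kidneys, with a difference of 1.12 ± 0.20 (limma adjusted p = 0.185). Il4ra, the chain shared by the IL-4 and IL-13 receptors, had 161, 183 and 362 at 0, 45 and 60 min on day 3 and 97.9, 182 and 222 on day 1. The clamp difference of Il4ra was 0.78 ± 0.19 (limma adjusted p = 0.222), although the 0 min kidney of day 3 was already close to the 45 min kidneys. Its other probe sets, both dim, gave 0.86 and -0.04. The one with 0.86 differed from 0 min by -1.02 at 45 min on day 1, so the direction was not shared throughout. Il13ra1, which pairs with the Il4ra product, had 923, 1487 and 1241 at 0, 45 and 60 min on day 3 and 1265, 1135 and 1085 on day 1, and so differed in direction between the days. The ligand genes Il4, Il5 and Il13 were dim and under 64 on every array.

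The promoter windows of Il1rl2, Il5ra and Il4ra are shown because these receptor genes had the largest clamp differences among receptor chains with a mean intensity of 64 or more. The windows are from RefSeq on build GRCm38.p6 and run 5' to 3' on the strand of the gene, from 250 bases before to 50 bases after the annotated start. Capitals mark a match to the AP-1 letters TGANTCA or to the NF-kB letters (GGG, 3 bases of any kind and TTCC) on either strand, and no matches overlapped in these windows. The Il1rl2 window is chr1:40324339-40324638 (plus strand), the Il5ra window chr6:106748988-106749287 (minus strand) and the Il4ra window chr7:125552021-125552320 (plus strand).
Il1rl2: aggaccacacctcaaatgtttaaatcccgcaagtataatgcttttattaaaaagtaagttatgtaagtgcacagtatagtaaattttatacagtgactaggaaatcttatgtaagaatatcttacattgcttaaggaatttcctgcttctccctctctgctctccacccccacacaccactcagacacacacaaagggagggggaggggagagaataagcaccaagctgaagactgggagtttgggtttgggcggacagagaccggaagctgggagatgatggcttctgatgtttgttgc
Il5ra: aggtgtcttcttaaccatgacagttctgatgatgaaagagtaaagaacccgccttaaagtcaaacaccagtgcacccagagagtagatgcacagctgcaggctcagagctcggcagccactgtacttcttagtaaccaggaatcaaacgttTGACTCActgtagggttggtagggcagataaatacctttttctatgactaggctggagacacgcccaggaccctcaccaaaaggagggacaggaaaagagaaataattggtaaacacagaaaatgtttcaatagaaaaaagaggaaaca
Il4ra: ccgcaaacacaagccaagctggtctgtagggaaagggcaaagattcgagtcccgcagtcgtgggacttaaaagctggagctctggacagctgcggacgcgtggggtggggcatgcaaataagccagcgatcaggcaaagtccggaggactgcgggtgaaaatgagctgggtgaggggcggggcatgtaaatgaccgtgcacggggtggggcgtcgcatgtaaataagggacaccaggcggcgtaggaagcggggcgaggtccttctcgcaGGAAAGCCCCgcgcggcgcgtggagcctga
The Il5ra window held an AP-1 match, TGACTCA, at positions -99 to -93 with the start base as 0. The Il4ra window held an NF-kB match read on the opposite strand, at positions 20 to 29, and the Il1rl2 window held neither set of letters. Of the 73 genes, 57 had a window in the table (70 windows), and 14 of these windows (20.0%) held the AP-1 letters against 7.81% of all 32851 windows. The NF-kB letters were in 11 of the 70 windows (15.7%), against 5.56% of all windows. These are matches of letters only, and binding was not measured.

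Genes of the common gamma chain group that act on lymphocytes were mostly dim (13 of 17 genes with the IL-4 and IL-13 genes). Il7, a growth factor for lymphocytes that stromal and epithelial cells make, averaged under 64 and had 37.4, 41.5 and 116 at 0, 45 and 60 min on day 3 and 34.9, 52.5 and 59.5 on day 1, a difference of 0.60 ± 0.24 (limma adjusted p = 0.352). A second, dimmer Il7 probe set had 12.5, 31.0 and 4.2 on day 3 and 1.91, 4.56 and 15.3 on day 1, so the high 60 min value of day 3 was not shared. Its receptor chain gene Il7r, known from T cells, had 31.2, 78.4 and 110 at 0, 45 and 60 min on day 3 but 72.3, 30.1 and 44.0 on day 1. The clamp effect on Il7r was higher on day 3 than on day 1 by 1.95 ± 0.43 (limma adjusted p = 1), and the dim second probe set had the same shape, with 13.2, 28.3 and 41.4 on day 3 and 20.3, 13.1 and 14.7 on day 1. Il7r was thus above the 0 min kidney in both clamped kidneys of day 3 and below it in both of day 1, and the fit of this change called 0 tested genes (0.0%) after adjustment. At an unadjusted p under 0.05 the change was positive in 3 of 35 interleukin genes and negative in 1, against 1.18% and 1.04% of all tested genes.

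Il15, whose product sustains natural killer and memory T cells, was the only interleukin gene with a mean of 64 or more whose 60 min kidneys both lay below the other 4. Its intensity at 0, 45 and 60 min was 695, 815 and 470 on day 3 and 661, 626 and 440 on day 1. The difference of 60 from 45 min was -0.63 ± 0.16 (limma adjusted p = 0.326), while that of clamped from 0 min kidneys was -0.24 ± 0.14 (limma adjusted p = 0.466). The summed tubule markers were lowest in the same 60 min kidneys, and their part in the Il15 values was not tested. In RNA of whole kidney, fewer cells of a type and less RNA per cell cannot be told apart. Il15ra, which presents IL-15 to neighbouring cells, ranged from 258 to 392 in clamped kidneys and was at 258 and 280 in the 0 min kidneys of day 3 and day 1.

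Of the gp130 group, Il6st, which encodes gp130 itself, was among the genes whose probe set gave high intensities on every array. It had 3254, 4078 and 3739 at 0, 45 and 60 min on day 3 and 3823, 4402 and 4110 on day 1, with a clamp difference of 0.21 ± 0.12 (limma adjusted p = 0.484). Clamped kidneys exceeded the 0 min kidney of their own day in 4 of 4 cases, but not the 0 min kidney of the other day in every case. Il6ra, the specific IL-6 receptor chain, had 110, 161 and 177 at 0, 45 and 60 min on day 3 and 112, 114 and 125 on day 1, a difference of 0.32 ± 0.16 (limma adjusted p = 0.426), while its second probe set gave -0.19. With 1 array left out the Il6ra difference ran from 0.08 to 0.56. Il6 itself was dim and not tested: it had 33.9, 29.6 and 139 at 0, 45 and 60 min on day 3 and 11.6, 21.4 and 50.0 on day 1. The 60 min kidney was the highest of each day. Il11, another ligand that signals through gp130, had 42.1, 70.5 and 73.6 at 0, 45 and 60 min on day 3 and 40.8, 18.7 and 96.6 on day 1, with a clamp difference of 0.37 ± 0.36.

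**Figure D2:**
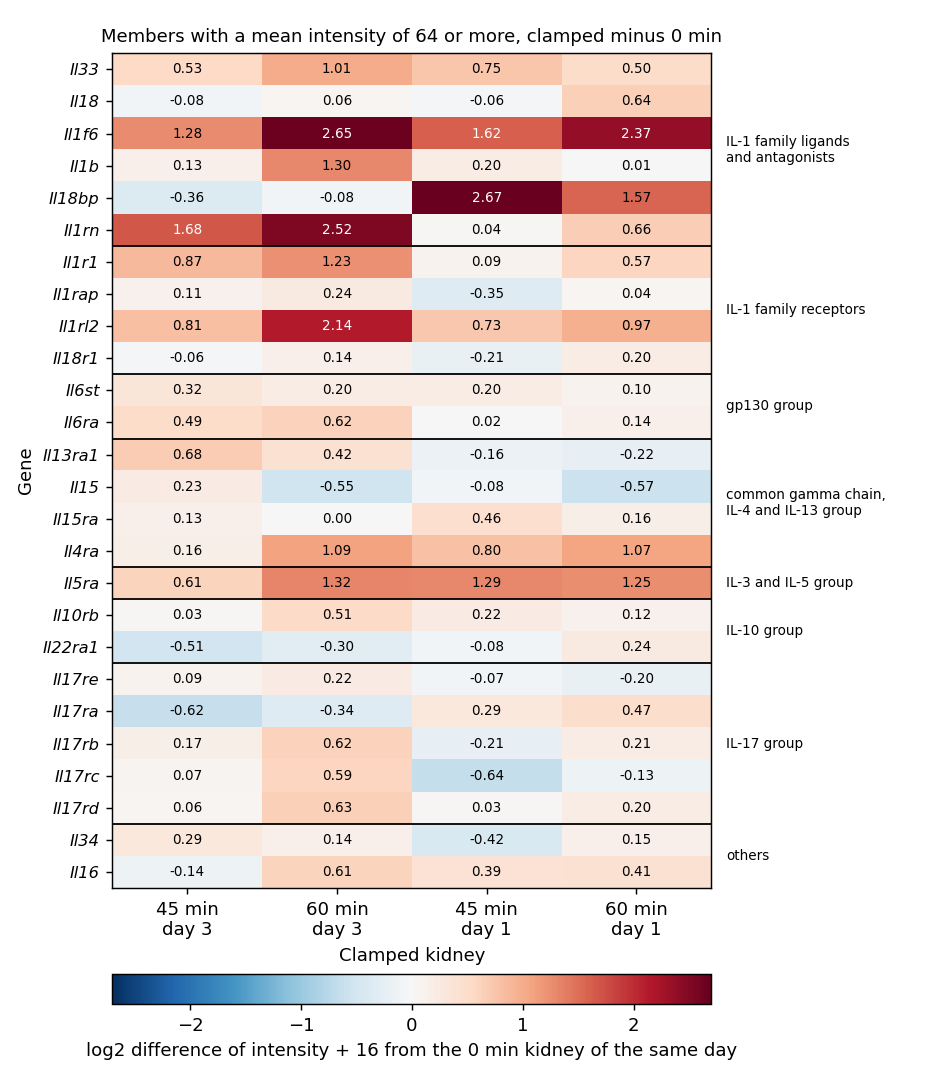
Differences on the log2(intensity + 16) scale between each clamped kidney and the 0 min kidney of the same day (columns, 1 array each) for the 26 genes with a mean intensity of 64 or more (rows, ordered by receptor or ligand group); red is higher and blue lower than 0 min. The row of Il1f6 runs from 1.28 to 2.65, and Il17ra and Il18bp change sign between the days.

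In the IL-10 group the bright gene was Il10rb, the chain shared by the receptors of IL-10, IL-22 and related ligands. It had 1590, 1627 and 2273 at 0, 45 and 60 min on day 3 and 1597, 1859 and 1743 on day 1, a clamp difference of 0.22 ± 0.17 (limma adjusted p = 0.570). Il10ra, the specific IL-10 receptor chain of leukocytes, was dim and highest in clamped kidneys of day 3, with 47.0, 65.4 and 128 at 0, 45 and 60 min on day 3 and 37.6, 30.9 and 43.3 on day 1. Clamped kidneys of day 3 exceeded those of day 1 by 1.04 ± 0.33 for Il10ra, a value that ran from 0.63 to 1.45 with 1 array left out. The second Il10ra probe set, also dim, was at 3.07 on day 3 and 24.2 on day 1 at 45 min, and at 38.1 on day 3 and 23.5 on day 1 at 60 min. The ligand gene Il10 was between 13.5 and 44.3 on all 6 arrays. Il24, a ligand of the same group, was not tested and had 1.51, 21.3 and 127 at 0, 45 and 60 min on day 3 and 37.1, 31.5 and 95.3 on day 1. Il24 and Il18rap were the 2 interleukin genes at least 2-fold higher at 60 than at 45 min on both days, a pattern of 0.456% of all genes. Il22ra1, the IL-22 receptor chain of epithelia, ranged from 62.8 to 92.5 in clamped kidneys against 96.4 and 75.9 in the 0 min kidneys of day 3 and day 1, and Il22ra2, the soluble IL-22 antagonist gene, was at 65.1 in the 0 min kidney of day 3 and under 18 on the other 5 arrays.

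The IL-17 receptor genes were measured well above the dim limit, while the ligand genes Il17a, Il17b, Il17d and Il25 were dim and under 64 on every array. Il17ra, the chain common to the family's receptors, had 646, 413 and 506 at 0, 45 and 60 min on day 3 and 317, 392 and 443 on day 1. Its clamped kidneys were below the 0 min kidney on day 3 and above it on day 1, and the 0 min kidneys themselves differed. The second Il17ra probe set was also highest in the 0 min kidney of day 3, at 326, against 138 to 192 on day 1. On day 1 that probe set had 191, 192 and 138 at 0, 45 and 60 min, and so did not share the higher clamped values of the brightest probe set. Il17rc, a partner chain, had 260, 273 and 399 at 0, 45 and 60 min on day 3 and 409, 257 and 371 on day 1. Il17rb had 251, 283 and 394 on day 3 and 407, 349 and 471 on day 1 at the same clamp times, and Il17re, the IL-17C receptor chain of epithelia, had 413, 439 and 485 on day 3 and 604, 573 and 522 on day 1. None of the 9 IL-17 genes had all 4 clamped kidneys on one side of both 0 min kidneys, which over all genes held for 9.37% above and 8.76% below. Il17rd, an orphan chain, had 182, 190 and 291 on day 3 and 227, 232 and 264 on day 1, with the order of the clamp times kept within each day.

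Outside the receptor groups above, the cytokine genes Il34 and Il16 were both above the dim limit. Il34, a ligand of the CSF1 receptor made by tubules, had 462, 567 and 510 at 0, 45 and 60 min on day 3 and 609, 450 and 676 on day 1, a difference of 0.04 ± 0.20 (limma adjusted p = 0.951). Both clamped values were above the 0 min value on day 3, and on day 1 they lay on either side of it. Il16, a chemoattractant for CD4 cells, had 118, 106 and 189 on day 3 and 72.0, 99.3 and 101 on day 1. Its clamp difference was 0.32 on this brightest probe set and 1.44, -0.24 and 0.76 on the others, all dim. The one with 1.44 had 29.6, 78.3 and 84.9 on day 3 and 7.83, 76.1 and 56.1 on day 1. It was thus at least 2-fold higher in each of the 4 clamped kidneys, which the brightest Il16 probe set was not. The IL-12 and IL-23 group was dim in all 5 of its genes, as were 3 of 4 in the IL-3 and IL-5 group, where Il3ra had 53.1, 34.7 and 71.6 at 0, 45 and 60 min on day 3 and 34.6, 65.4 and 84.1 on day 1. Of the 47 dim genes, 33 were under 64 on every array and 7 under 16 on every array.

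**Figure D3:**
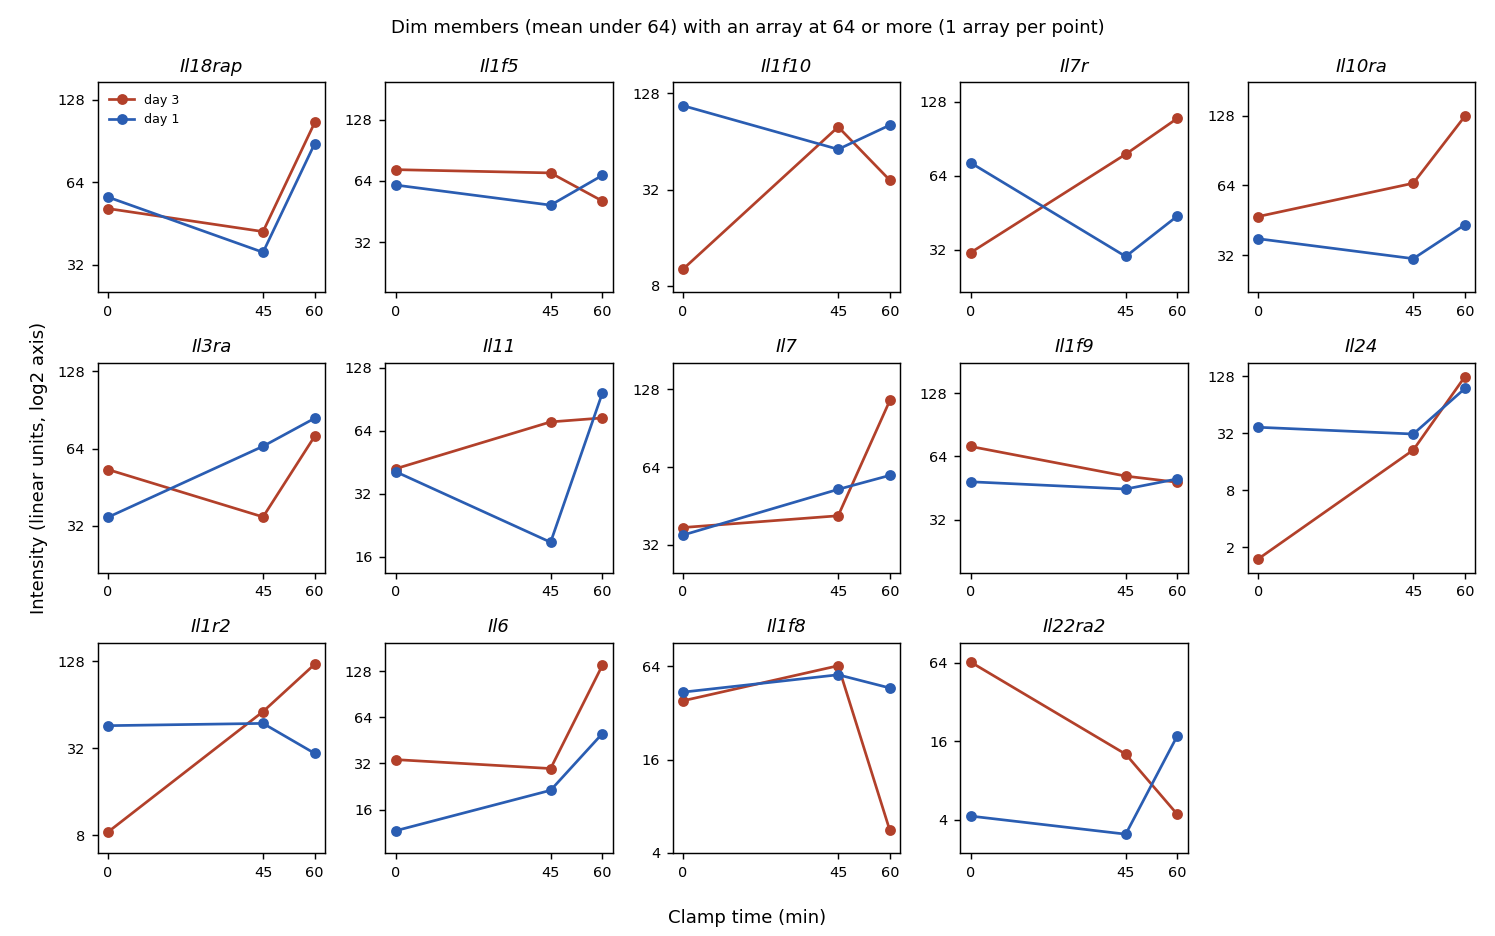
Intensity on a log2 axis against clamp time in minutes for the 14 dim genes that reached 64 on at least 1 array; each point is 1 array, red for day 3 and blue for day 1, and lines join different kidneys of a day. In Il6, Il24 and Il18rap the 60 min kidney is the highest of each day, and in Il1f10, Il24 and Il1r2 the 0 min kidneys of the 2 days are far apart.

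Counted over the family, 10 of 73 genes (13.7%) had all 4 clamped kidneys above both 0 min kidneys, against 9.37% of all genes. With a mean of 64 or more the count was 9 of 26 (34.6%), against 11.0% of all genes with such a mean. That mean includes the clamped arrays, so a gene bright only in clamped kidneys can pass it. Il1rn, for instance, read 16.2 and 50.2 in the 0 min kidneys of day 3 and day 1. Counts over the 26 brighter genes are therefore descriptions and not a test. Besides Il1f6, Il1rl2, Il5ra, Il4ra, Il33, Il1r1, Il1rn, Il6ra and Il10rb, the tenth was the dim gene Il7. The reverse, all 4 clamped kidneys below both, held for 1 gene, the dim Il3, against 8.76% of all genes, and for 0 of the 26 brighter genes, against 8.9%. The order 0, 45, 60 min on both days was seen in 10 genes (13.7%, against 7.61% of all genes), 7 of them among the 26 brighter genes (against 9.78%). Both 60 min kidneys were above the other 4 in 17 genes (23.3%, against 14.4%) and below them in 2, Il15 and the dim Il2 (against 11.8%). The 60 min day 3 kidney was the highest array in 25 genes (34.2%, against 23.4%). Both clamped kidneys lay on opposite sides of the 0 min kidney on the 2 days in 5 of the 26 brighter genes, against 13.8% of all genes with such a mean. The median clamp difference was 0.13 for the 73 genes and -0.0013 for all genes. At an unadjusted p under 0.05, 7 of the 35 interleukin genes that passed the filter on low values were higher and 0 lower, against 9.56% higher and 5.03% lower of all tested genes, and passing that filter depends in part on the same arrays.

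Between single arrays, the 60 min kidney of day 3 stood furthest from its 0 min kidney. There, 17 of 73 genes (23.3%) were at least 2-fold higher, against 7.92% of all genes, and 4 (5.48%) at least 2-fold lower, against 3.69%. They included Il1f6, Il1rl2, Il1b, Il1rn, Il1r1, Il33, Il4ra and Il5ra with a mean of 64 or more, and 9 dim genes. At 45 min on day 3, 6 genes (8.22%, against 3.73% of all genes) were higher and 3 lower (against 2.54%). On day 1, 7 were higher at 60 min (9.59%, against 4.94%) and 2 lower (against 4.22%), and at 45 min 3 were higher (4.11%, against 4.08%) and 1 lower (against 3.85%). At least 2-fold between 60 and 45 min were 10 genes higher (13.7%, against 6.46%) and 2 lower (against 4.12%) on day 3, and 3 higher (4.11%, against 2.69%) and 2 lower (against 2.48%) on day 1. The shares of day 1 at 45 min were thus near those of all genes. The comparisons with 0 min share the 0 min array of their day, and those of 60 with 45 min share the clamped arrays with them. The 0 min kidneys of day 3 and day 1, with no clamping in either, differed by at least 2-fold in 7 genes higher (9.59%, against 3.05%) and 6 lower (8.22%, against 4.11%) on day 3. Between days, 6 genes were higher (8.22%, against 3.72%) and 0 lower (against 3.34%) on day 3 at 45 min, and 8 higher (11.0%, against 4.34%) and 2 lower (against 2.5%) at 60 min. The 60 min kidney of day 3 also had the highest sum of the 7 monocyte and macrophage markers measured, 28807, against 7520 to 11889 in the other clamped kidneys and 4596 to 8263 in 0 min kidneys, and the lowest Actb ratio. The part of these in the interleukin values was not tested.

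**Figure D4:**
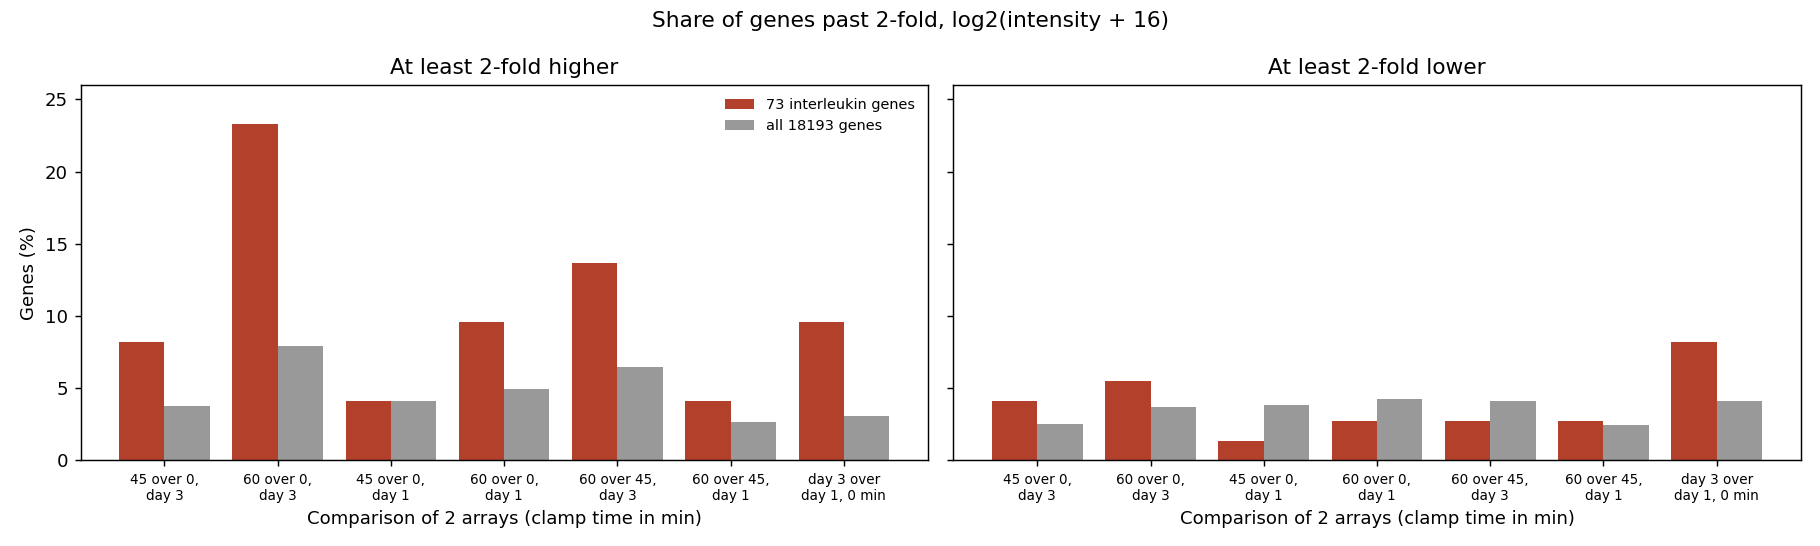
Share of genes in percent at least 2-fold higher (left) or lower (right) in comparisons of 2 single arrays, for the 73 interleukin genes (red) and all 18193 genes (grey). The red bar is tallest for 60 over 0 min on day 3, at 23.3%, and the comparison of the 2 unclamped kidneys reaches 9.59% higher and 8.22% lower.

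The 7 monocyte and macrophage markers measured were all above the dim limit, while lymphocyte markers were mostly below it. T cell markers summed to 162 to 254 in clamped kidneys and 201 to 259 in 0 min kidneys, with 5 of 6 measured markers dim. The 3 measured B cell markers, all dim, summed to 83.6 to 161 in clamped and 72.6 to 157 in 0 min kidneys. Neutrophil markers summed to 991 to 1478 in clamped and 913 to 986 in 0 min kidneys, with 3 of 5 dim. That sum was mostly S100a8 and S100a9, the 2 higher than 0 min of the same day in all 4 clamped kidneys. The dim Mpo was lower in all 4, and the dim Elane and Cxcr2 were mixed. Dendritic cell markers summed to 180 to 340 in clamped and 209 to 256 in 0 min kidneys. Their part in the receptor values was not tested.

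The list of 40 signalling genes held ligands and receptor chains outside the interleukin names as well as genes downstream of receptors. On the array were 37 of them and 32 were tested, of which 0 passed in either direction. In all 4 clamped kidneys 15 of the 37 were higher and 5 lower than the 0 min kidney of the same day, against 14.7% higher and 15.2% lower of all genes, with a median clamp difference of 0.20. The list was chosen with earlier results of these data known, and 5 of the 37 were dim, against 33.2% of all genes. These counts are therefore descriptions and not a test. Socs3, the feedback inhibitor of gp130 signalling, had 286, 972 and 2058 at 0, 45 and 60 min on day 3 and 291, 634 and 1536 on day 1, a difference of 1.98 ± 0.17 (limma adjusted p = 0.131). Clcf1, a gp130 ligand outside the interleukin names, had 82.0, 305 and 821 on day 3 and 95.6, 229 and 433 on day 1, a difference of 1.99 ± 0.24 (limma adjusted p = 0.151). Nfkbiz, an inducible regulator of NF-kB targets, had 741, 1397 and 2440 on day 3 and 738, 1269 and 2013 on day 1, a difference of 1.20 ± 0.13 (limma adjusted p = 0.131). In Socs3, Clcf1 and Nfkbiz the order was 0, 45, 60 min on both days, as in 9.78% of all genes with a mean of 64 or more. Cish, a feedback inhibitor downstream of STAT5 that was chosen after its values were seen, was lower in each clamped kidney, with 1355, 384 and 488 on day 3 and 826, 476 and 672 on day 1, a difference of -1.07 ± 0.27 (limma adjusted p = 0.230).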

How the data were processed

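The 6 Affymetrix mouse arrays carried 45101 probe sets. Per the labels, total RNA was extracted with Trizol, amplified with a 3' IVT kit and hybridised; the deposited values are linear intensity values from Affymetrix Expression Console, per the submitters' processing notes, and its version and summarisation were not given in the sources used. Their trimmed mean, with 2% left out at each end, was 500.0 on each array, so the arrays share a scale. Genes were named from the platform annotation, leaving out 932 probe sets with several symbols and 9160 with none. From the deposited intensity values, log2(intensity + 16) was computed, and probe sets under the 40th percentile of mean log2 were left out of the test, which kept 12734 genes. limma 3.58.1 in R 4.3.3 fitted clamp time and day, and a second fit the change of the clamp effect with day. The fit was run on simulated data with independent noise and the same clamp effect on both days. Such data cannot show how the fit handles effects that differ between days. Probe sets of different genes are not compared in level. The number of arrays limits the precision. The members and lists were chosen with earlier results of these data known. Members with a mean of 64 or more are named with values or in a range, as are dim members that reached 64 on an array and a preset list of interleukin genes. Outside the family, the 3 signalling genes with the largest clamp difference are named, since none passed, and Cish was named after its values were seen.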

Additional observations from a re-analysis of the deposited data

Results flagged for a closer look

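In 5 interleukin genes with a mean intensity of 64 or more, both clamped kidneys lay on one side of the 0 min kidney on day 3 and on the other side on day 1. Among all genes with such a mean 13.8% did so. The clamp effect on day 3 minus that on day 1 was 0.74 for Il13ra1, 0.29 for Il17re, 0.71 for Il17rc, -0.86 for Il17ra and -2.34 for Il18bp. The limma test of this change called 0 of 12734 genes at an adjusted p under 0.05. Each change rests on 1 unclamped array per day. In Il18bp that array read 98.6 on day 3 and 8.01 on day 1, and in Il17ra it read 646 on day 3 and 317 on day 1. The other 4 Il13ra1 probe sets gave clamp differences of -0.21, -0.13, 0.05 and 0.06 over both days, a mean in which opposite directions cancel. The dimmest of them, with 0.06, shared the change. At 45 and 60 min it differed from 0 min by 0.68 and 0.81 on day 3 and -0.72 and -0.51 on day 1. The remaining ones did not have both clamped kidneys on opposite sides of 0 min on day 3 and day 1. The other 2 Il17re probe sets did not share the change: at 45 and 60 min they differed from 0 min by -0.01 and 0.02 on day 3 and 0.33 and 0.44 on day 1, and by -0.11 and 0.12 on day 3 and 0.64 and 0.39 on day 1. The second Il17ra probe set differed from 0 min by -0.83 and -0.32 on day 3 and by 0.0089 and -0.42 on day 1. With 1 array per combination, no sample could be tested for standing apart from its group.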

How the results depend on the processing

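No paired analysis was possible because each combination of clamp time and day has 1 array and the labels carry no replicate number; day is a term of the fit. The count of all genes called for clamped against 0 min kidneys was 0 in the fit, 1 with median centring, 75 with a trended and robust prior, 1 without the day term, and 0 to 200 when 1 array was left out, with 200 without the 45 min day 3 array. The count of interleukin genes called was 1 with the trended and robust prior (Il1f6, limma adjusted p = 0.0248). Over the alternatives the limma adjusted p ran from 0.025 to 0.546 for Il1f6 and from 0.041 to 0.622 for Il5ra. With 1 array left out, the clamp difference ran from 1.86 to 2.10 for Il1f6, 0.85 to 1.48 for Il1rl2, 0.94 to 1.298 for Il5ra, 0.62 to 0.94 for Il4ra, 0.35 to 2.10 for Il1rn and 0.33 to 1.05 for Il1r1. With a pseudocount of 1, interleukin genes at least 2-fold higher numbered 13 for 45 over 0 min (8.6% of all genes) and 17 for 60 over 45 min (11.2%) on day 3, and 6 for 45 over 0 min (7.77%), 19 for 60 over 0 min (8.99%) and 12 for 60 over 45 min (7.16%) on day 1. With a pseudocount of 64 they numbered 0 for 45 over 0 min (0.429% of all genes), 8 for 60 over 0 min (3.88%) and 4 for 60 over 45 min (2.81%) on day 3, 1 for 60 over 0 min (2.07%) and 0 for 60 over 45 min (0.39%) on day 1, and 0 in all 4 clamped kidneys (0.044%). With median centring, 4 were higher for 60 over 0 min on day 1 (3.89% of all genes). Il34 changed sign to -0.039 with quantile normalisation, to -0.033 with median centring, and ran from -0.14 to 0.22 with 1 array left out; Il18 ran from -0.011 to 0.29. The causes were not tested. The change of the clamp effect with day has no value without either 0 min array. With 2 residual degrees of freedom and dim probe sets for most of the family, small differences could not be resolved.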

Other observations

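Probe sets of the same gene did not always give the same direction, and 27 of the 73 interleukin genes had more than 1. For Il6st, the clamp difference was 0.21 on the brightest probe set, 0.49 and 0.50 on the next 2 and -0.24 on the fourth. The second of these had 1441, 1565 and 2349 at 0, 45 and 60 min on day 3 and 1294, 1808 and 2039 on day 1, with the 3 clamp times in the same order on both days. For Il10rb, the second probe set gave 0.34 beside 0.22 on the brightest.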
